A study of Mus musculus with 2 samples.

Results

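The acute phase genes described here are 10 mouse genes, Saa1, Saa2, Saa3, Hp, Orm1, Orm2, Lcn2, Hamp, Cp and Fgl1, found by their symbols among the 31053 features of both count tables. All 10 were present, and their UMIs (unique molecular identifiers, each standing for 1 captured transcript) were summed per library over hepatocyte barcodes, macrophage-like, monocyte-like and neutrophil-like cells and, as a measure of free RNA, lymphocyte-like cells. The files list them as ENSMUSG00000074115 (Saa1), ENSMUSG00000057465 (Saa2), ENSMUSG00000040026 (Saa3), ENSMUSG00000031722 (Hp), ENSMUSG00000039196 (Orm1), ENSMUSG00000061540 (Orm2), ENSMUSG00000026822 (Lcn2), ENSMUSG00000050440 (Hamp), ENSMUSG00000003617 (Cp) and ENSMUSG00000031594 (Fgl1).

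The study compared 2 single-cell libraries from liver tumour tissue (HCC, hepatocellular carcinoma), 1 from FABP5 inhibitor treatment and 1 control. FABP5 is a fatty acid binding protein. Both libraries came from C57BL/6 mice that the labels give as 17 months old and as fed a diet abbreviated CD-HFD for 15 months, and inhibitor treatment began at month 13. The tumour region was cut out and digested with collagenase, live cells were selected with an Annexin V kit, and droplets were made with 10x Genomics 3' chemistry. The labels give neither the number of mice behind a library nor what the control animals received. Levels are given as CPM, UMIs scaled to a class total of 1000000 UMIs, either of all UMIs or of non-mitochondrial UMIs. With 1 library per group there is no replicate check and no test, so intervals below are exact 95% intervals that cover counting error only. A gene is called higher or lower where the library sums differ by at least 1.5-fold.

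The acute phase response is the change in liver secretion during inflammation, driven mainly by interleukin 6 through STAT3 and by interleukin 1 through NF-kB and C/EBP factors. Hepatocytes are the main source of the proteins. In the mouse, Saa1 and Saa2 encode the circulating serum amyloid A apolipoproteins, while Saa3 is also made outside the liver, in macrophages and fat among other sites. Haptoglobin and lipocalin 2 are also stored in neutrophil granules, so these genes are read in myeloid cells as well as in hepatocytes.

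The inhibitor library held 10649 barcodes and 68074929 UMIs, and the control library 9493 barcodes and 53378693 UMIs. The libraries shared 29 barcode sequences, none of them among hepatocyte barcodes. Hepatocyte barcodes, defined by at least 20 UMIs of Alb, Apoa1, Ttr and Fabp1 together and at most 1 UMI of the leukocyte gene Ptprc, numbered 169 in the inhibitor library (1.59%) and 1847 in the control library (19.5%). The 4 genes summed to 20 to 29 UMIs, just inside the limit, in 13 inhibitor and 167 control barcodes, and to 15 to 19 UMIs, just outside it, in 12 and 89; a further 32 and 372 were left out for Ptprc, and 11 and 53 of those kept were scored as doublets. The libraries' hepatocyte barcodes differed in kind. The median mitochondrial share of UMIs was 2.10% in the inhibitor library and 85.1% in the control library, and 38 of 169 against 1581 of 1847 barcodes lay above 25%. Inhibitor barcodes were rich in Glul, the glutamine synthetase of pericentral hepatocytes, at 8091 non-mitochondrial CPM, against 25.9 in the control library. Control barcodes were rich in the epithelial and tumour-like markers Spp1, at 160 in the inhibitor library and 7870 in the control library, and Tspan8, at 29.7 and 923. Alb stood at 5905 in the inhibitor library and 62553 in the control library, and Fabp1, whose product is the liver relative of FABP5, at 23632 and 1266. Glul was singled out after its values were seen. Treatment, kind of hepatocyte and mitochondrial load cannot be told apart here.

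All 10 listed hepatocyte markers had UMIs in both libraries. Among other lists, the neutrophil markers summed to 637 non-mitochondrial CPM in inhibitor hepatocyte barcodes and 322 in control ones, against 156751 and 107507 in the libraries' own neutrophil-like cells. The macrophage list summed to 6828 in the inhibitor library and 29808 in the control library, nearly all of it Apoe, which hepatocytes also make; without Apoe it summed to 236 and 843, against 14872 and 12026 in macrophage-like cells. The T cell list summed to 17.7 and 227, endothelial markers to 4.24 and 54.3, and stellate markers to 13.4 and 44.2 in the inhibitor and control libraries. The cholangiocyte or tumour-like epithelium list summed to 214 in the inhibitor library, with Epcam and Krt7 at 0, and to 8959 in the control library. Of the barcodes that passed the cell filters and were clustered, 3 in the inhibitor library and 159 in the control library lay in the cluster of that name, and 117 and 11 in hepatocyte-like clusters. A further 14 control barcodes lay in other clusters. The split of control barcodes depended on the clustering resolution. At resolution 2, 1 inhibitor and 43 control barcodes lay in the cluster of that name. A cluster named as hepatocyte-like held 2 inhibitor and 116 control barcodes, and another so named held 117 and 1. The part of other cell types in the results was not tested.

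Sequences upstream of the genes are shown first for the members that the results set apart or that are hard to tell apart by sequence. The 3 serum amyloid genes lie together on chromosome 7 of GRCm38, Saa3 at 46711998 to 46715700 and Saa1 at 46740497 to 46742980 on the minus strand, and Saa2 at 46751790 to 46754313 on the plus strand. Hamp lies on the minus strand of the same chromosome at 30942368 to 30944032, and Orm1 and Orm2 lie side by side on the plus strand of chromosome 4, at 63344560 to 63348163 and 63362449 to 63365878. RefSeq promoter sequences of build GRCm38.p6 were matched for 7 members, Saa1, Saa2, Saa3, Orm2, Lcn2, Hamp and Cp. The stretches printed run 5′ to 3′ on the gene's strand and end before the first annotated exon: chr7:46742981-46743230 (minus) for Saa1, chr7:46751583-46751789 (plus) for Saa2, chr7:46715701-46715926 (minus) for Saa3, chr4:63362199-63362448 (plus) for Orm2 and chr7:30944033-30944279 (minus) for Hamp. Capitals mark matches to the 4 motifs searched.
Saa1: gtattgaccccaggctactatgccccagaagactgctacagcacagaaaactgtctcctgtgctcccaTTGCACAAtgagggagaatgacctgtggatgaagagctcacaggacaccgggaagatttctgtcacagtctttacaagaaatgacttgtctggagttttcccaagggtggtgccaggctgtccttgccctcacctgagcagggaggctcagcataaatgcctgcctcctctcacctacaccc
Saa2: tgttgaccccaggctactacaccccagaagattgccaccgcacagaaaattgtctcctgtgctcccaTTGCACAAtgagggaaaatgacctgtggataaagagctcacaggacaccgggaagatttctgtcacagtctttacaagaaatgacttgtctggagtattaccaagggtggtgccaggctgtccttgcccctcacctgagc
Saa3: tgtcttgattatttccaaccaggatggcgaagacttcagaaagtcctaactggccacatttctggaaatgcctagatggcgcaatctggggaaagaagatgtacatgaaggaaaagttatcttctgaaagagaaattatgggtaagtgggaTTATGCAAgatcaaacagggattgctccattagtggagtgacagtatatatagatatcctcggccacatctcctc
Orm2: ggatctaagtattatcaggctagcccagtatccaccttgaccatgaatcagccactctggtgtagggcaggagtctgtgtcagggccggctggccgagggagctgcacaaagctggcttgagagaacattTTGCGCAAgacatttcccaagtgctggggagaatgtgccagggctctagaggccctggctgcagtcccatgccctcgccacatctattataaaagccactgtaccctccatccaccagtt
Hamp: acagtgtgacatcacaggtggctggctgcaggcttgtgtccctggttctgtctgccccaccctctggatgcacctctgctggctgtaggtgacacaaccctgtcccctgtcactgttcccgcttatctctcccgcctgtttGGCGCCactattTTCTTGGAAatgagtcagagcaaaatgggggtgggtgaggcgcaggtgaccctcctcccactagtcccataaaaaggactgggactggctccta

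The motifs were searched on both strands of the 250 bases before each RefSeq start, and no match overlapped another. The C/EBP core TTGCNNAA was found in 6 of the 7 members with a sequence, all but Hamp (for Cp in 1 of its annotated promoters), and in 9.56% of 32851 mouse promoter windows of the same length. It began 182 bases before the start in Saa1, 183 in Saa2, 99 in Saa3, 120 in Orm2, 216 in Lcn2 and 70 in Cp. Hamp held the STAT letters TTCNNNGAA 97 bases before its start and the BMP response letters GGCGCC 109 bases before it, which are found in 7.02% and 9.59% of all windows. The form of the NF-kB motif that was searched, found in 1.41% of all windows, was in none of the 7. Other forms of this motif were not searched, so these promoters are not shown to lack NF-kB sites. A match describes letters and is not evidence of binding. The Saa1 and Saa2 windows were 95.6% identical over aligned bases, and the Saa1 and Saa3 windows 64.4%. The longest protein-coding transcripts of Saa1 and Saa2 were 94.4% identical and those of Orm1 and Orm2 91.0%, so reads of these pairs may be hard to assign and their values are uncertain.

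In hepatocyte barcodes Saa3 stood apart from every other member, being far higher in the inhibitor library, while Fgl1, Orm1, Lcn2 and Cp were lower. Relative to all UMIs, 4 of the 10 members were lower and 3 higher in the inhibitor library, against 12.7% lower and 70.9% higher among all 10802 features with at least 20 UMIs. The median log2 ratio of inhibitor over control was -0.15 for the members and 1.21 for all features. Because mitochondrial UMIs took 22.8% of the pooled UMIs in inhibitor barcodes and 61.3% in control barcodes, every ratio moved by about 1 log2 unit when taken relative to non-mitochondrial UMIs. On that scale 6 members were lower and 1 was higher, against 25.7% and 34.4% of all features, and the medians were -1.15 for the members and 0.22 for all features. Both scales are therefore given for the level of each member in hepatocyte barcodes.

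**Figure D1:**
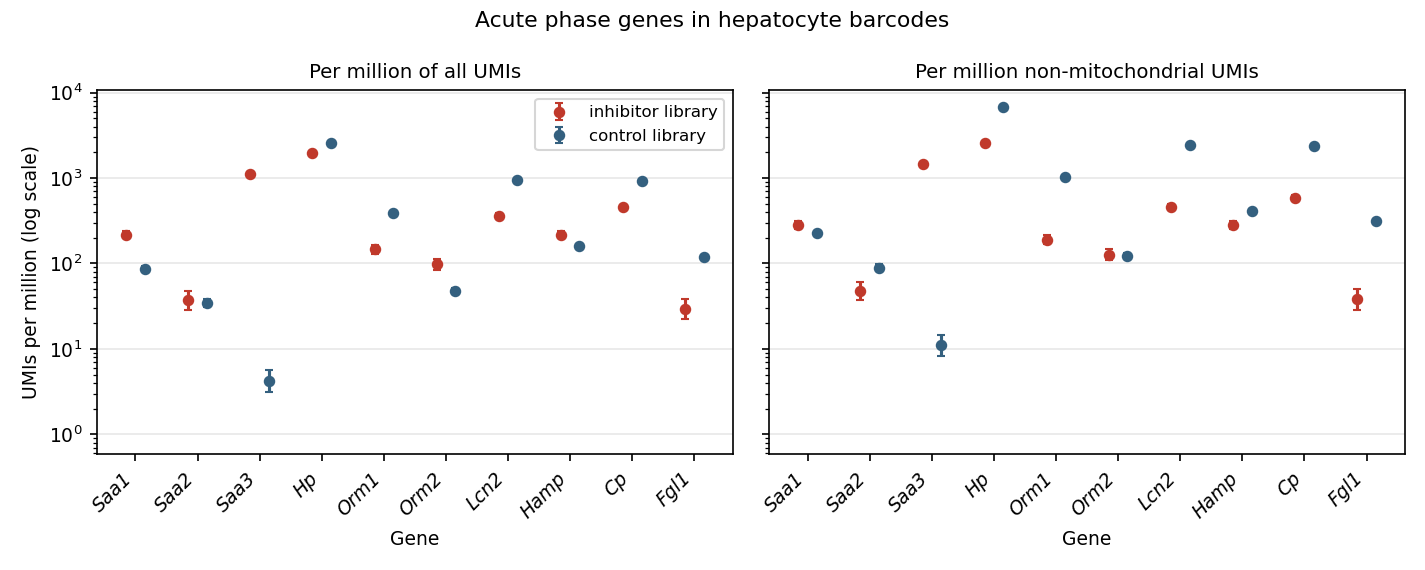
Levels of the 10 genes in hepatocyte barcodes, as CPM on a log axis, of all UMIs (left) and of non-mitochondrial UMIs (right); red points are the inhibitor library (169 barcodes), blue points the control library (1847 barcodes), and bars are exact 95% Poisson intervals. Saa3 was at 1118 CPM of all UMIs in the inhibitor library and at 4.26 in the control library, and Fgl1, Orm1, Lcn2 and Cp were lower in the inhibitor library in both panels.

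The serum amyloid genes differed among themselves. Saa3 had 2051 UMIs in inhibitor hepatocyte barcodes, or 1118 CPM (95% interval 1070 to 1167), and 50 UMIs in control barcodes, or 4.26 CPM (3.16 to 5.61). The inhibitor library was 263-fold higher relative to all UMIs and 132-fold higher relative to non-mitochondrial UMIs, log2 ratios of 8.04 (7.63 to 8.47) and 7.04 (6.64 to 7.48). The control level rested on 25 of 1847 barcodes, and 5 of them held 60% of its UMIs. Saa3 was at least 1.5-fold higher in the inhibitor library in all 13 alternative gates, subsets and scalings, between log2 ratios of 4.69 and 9.12, the lower of which is a bound against 3 UMIs because no control barcode of that subset had a Saa3 UMI.

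Saa1 and Saa2, the circulating forms, did not share this size of difference. Saa1 had 218 CPM (197 to 240) in the inhibitor library and 86.9 (81.7 to 92.4) in the control library, a log2 ratio of 1.33, which was 0.33 relative to non-mitochondrial UMIs. Saa2 had 37.1 (28.8 to 47.0) and 34.6 (31.3 to 38.1) CPM in the inhibitor and control libraries, a log2 ratio of 0.10 and an interval of -0.29 to 0.47, and -0.89 relative to non-mitochondrial UMIs. The direction of Saa1 rested on which barcodes were counted. Among barcodes with at most 25% mitochondrial UMIs, Saa1 was at 311 non-mitochondrial CPM in the inhibitor library and 120 in the control library, whereas among those above 25% it was at 127 and 379. With each barcode weighted equally it was 259 in the inhibitor library and 347 in the control library.

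Haptoglobin, encoded by Hp, binds free haemoglobin in plasma. In hepatocyte barcodes it was at 1962 CPM (1898 to 2027) in the inhibitor library and 2594 (2565 to 2623) in the control library, a log2 ratio of -0.40 that stayed inside the 1.5-fold limit. Relative to non-mitochondrial UMIs the levels were 2542 and 6700, and the log2 ratio was -1.40.

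Orm1 and Orm2 encode the plasma carrier alpha-1-acid glycoprotein, and they differed in opposite directions relative to all UMIs. Orm1 was at 147 CPM (130 to 165) in the inhibitor library and 394 (383 to 405) in the control library, with log2 ratios of -1.43 over all and -2.42 over non-mitochondrial UMIs. Orm2 was at 97.6 (83.8 to 113) in the inhibitor library and 47.4 (43.6 to 51.5) in the control library, a log2 ratio of 1.04. Relative to non-mitochondrial UMIs Orm2 was level, at 126 in the inhibitor library and 122 in the control library. Like Saa1, Orm2 turned round above 25% mitochondrial UMIs, at 118 non-mitochondrial CPM in the inhibitor library and 200 in the control library, and with equal weighting of barcodes, at 160 and 197.

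Of the members that handle iron, Lcn2 and Cp were lower, and the direction of Hamp depended on the barcodes and the scale. Lipocalin 2, encoded by Lcn2, captures bacterial siderophores and so withholds iron. Lcn2 was at 356 CPM (330 to 385) in inhibitor hepatocyte barcodes and 948 (931 to 966) in control barcodes, log2 ratios of -1.41 over all and -2.41 over non-mitochondrial UMIs. Ceruloplasmin, encoded by Cp, is the copper-carrying ferroxidase of plasma, and it was at 455 (425 to 487) in the inhibitor library and 925 (907 to 942) in the control library. Its log2 ratios were -1.02 and -2.02 on the 2 scales. Hepcidin, encoded by Hamp, is the hormone that closes the iron exporter ferroportin. Hamp was at 217 (197 to 240) in the inhibitor library and 159 (152 to 166) in the control library, with log2 ratios of 0.45 over all UMIs and -0.54 over non-mitochondrial UMIs, both inside the 1.5-fold limit. Over the 13 alternatives Hamp was at least 1.5-fold higher in 4 and lower in 4, between log2 ratios of -1.68, without the 5 barcodes richest in it and relative to non-mitochondrial UMIs, and 2.30, a bound against 3 UMIs inside hepatocyte-like clusters.

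Fgl1, a secreted fibrinogen-like protein made by hepatocytes and known as a ligand of LAG-3, an inhibitory receptor of T cells, was the member furthest below the control. It was at 29.4 CPM (22.1 to 38.4) in the inhibitor library and 121 (114 to 127) in the control library, log2 ratios of -2.03 and -3.03 on the 2 scales. Cp and Fgl1 were at least 1.5-fold lower in the inhibitor library in all 13 alternatives. Orm1 was so in 12 of 13 and Lcn2 in 11 of 13. The exception in direction for both was the subset of hepatocyte barcodes inside hepatocyte-like clusters, 117 in the inhibitor library and 11 in the control library, where the log2 ratios were 0.50 for Orm1 and 2.23 for Lcn2. The Orm1 value rested on 232 inhibitor and 8 control UMIs (-0.50 to 1.73) and the Lcn2 value on 288 and 3 (0.67 to 4.51). The 117 inhibitor barcodes lay in a cluster with 1 of the control barcodes. The other 10 lay in a cluster of 2 inhibitor and 193 control cells. A cluster with nearly the same leading genes was named T cell at resolution 2, so this subset may not set like cells against like. The 13 alternatives did not include scaling to Alb alone, which was itself far lower in inhibitor barcodes. Per Alb UMI these genes were higher in the inhibitor library. Cp stood at 0.0999 in the inhibitor library and 0.0382 in the control library, and Fgl1 at 0.00646 and 0.00498. Orm1 stood at 0.0322 and 0.0163, and Lcn2 at 0.0782 and 0.0392. Their direction thus depended on the scale.

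**Figure D2:**
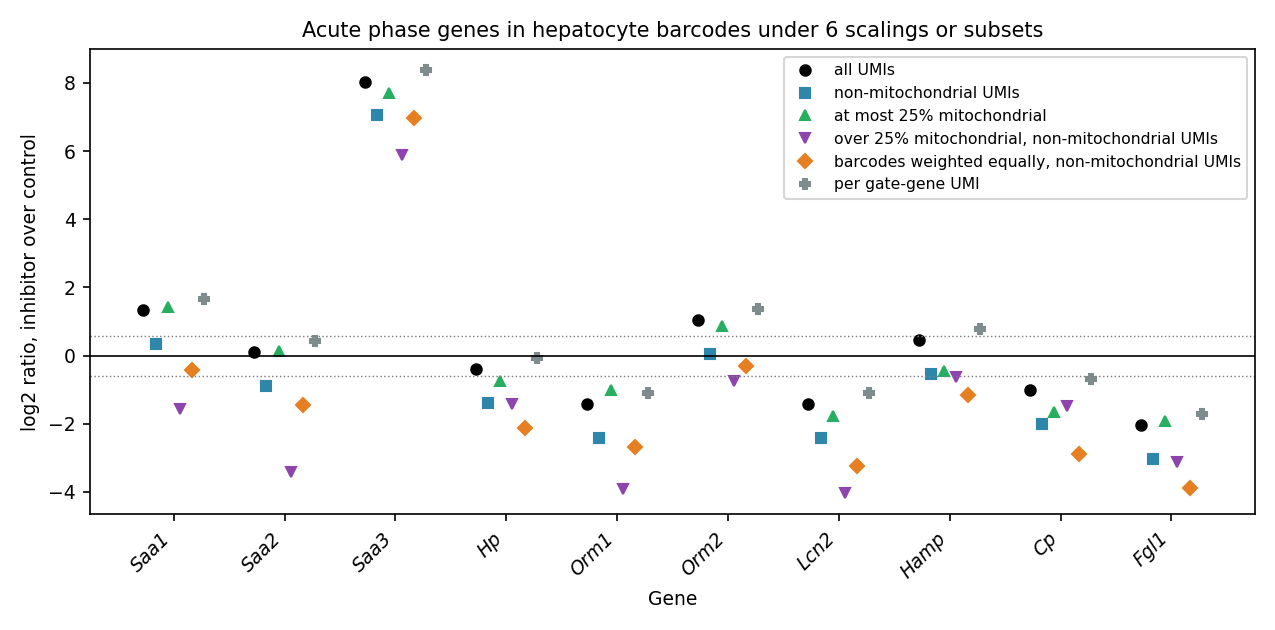
Log2 ratio of inhibitor over control in hepatocyte barcodes for each gene under 6 scalings or subsets (symbols), with the solid line at equal levels and dotted lines at 1.5-fold. Saa3 lay above 5 in all 6, Orm1, Lcn2, Cp and Fgl1 lay below the lower dotted line in all 6, and Saa1, Saa2, Orm2 and Hamp lay on both sides of 0; the over-25% value of Saa2 is a bound against 3 UMIs.

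The UMIs were spread unevenly over barcodes. In the inhibitor library the 5 barcodes with the most UMIs of the gene held 53.8% of Saa1, 85.3% of Saa2, 54.4% of Saa3, 51.5% of Hp, 62.8% of Lcn2, 74.9% of Hamp and 47.5% of Cp UMIs. In the control library the like shares were 23.5% for Saa1, 29.1% for Saa2, 10.7% for Hp and 14.1% for Lcn2. For Hamp the control share was 42.7%, and for Cp 6.61%. Saa3 went the other way, with a control share of 60%. The 5 barcodes are a larger part of 169 inhibitor barcodes than of 1847 control ones, so group size also enters these shares. The 5 deepest hepatocyte barcodes held 13.8% of all UMIs of that class in the inhibitor library and 2.36% in the control library. A few barcodes rich in the gene thus carried much of the inhibitor sums. Saa2 rested on them most: without them it had 10 UMIs in the inhibitor library and 288 in the control library, and its log2 ratio was -2.08 relative to all UMIs, against 0.10 with them. The other ratios relative to all UMIs were then 8.36 for Saa3, 0.71 for Saa1, 0.17 for Orm2, -0.65 for Hamp, -1.17 for Hp, -1.72 for Cp, -1.87 for Orm1, -2.48 for Lcn2 and -2.57 for Fgl1. Relative to non-mitochondrial UMIs they were 7.38 for Saa3, -0.29 for Saa1, -0.84 for Orm2, -1.68 for Hamp, -2.20 for Hp, -2.72 for Cp, -2.89 for Orm1, -3.08 for Saa2, -3.49 for Lcn2 and -3.58 for Fgl1. Saa1 and Orm2 were thus on different sides of 0 on the 2 scales.

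Shares of barcodes with a UMI showed the same split. Saa3 was found in 55.6% of inhibitor hepatocyte barcodes (47.8 to 63.2, exact binomial) and in 1.35% of control ones (0.878 to 1.99), while lymphocyte-like cells, which should lack the gene, held it in 0.907% and 0.129%. Median depth was 3422 non-mitochondrial UMIs per hepatocyte barcode in the inhibitor library and 779 in the control library, and 3337 and 3268 per lymphocyte-like cell. Barcodes were therefore also thinned to 500 non-mitochondrial UMIs, which left out 13 shallower barcodes in the inhibitor library and 657 in the control library. The thinned share with Saa3 was 31.4% in the inhibitor library and 0.672% in the control library, against 0.219% and 0.0645% in lymphocyte-like cells.

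For the other members the thinned shares ran the other way or close together. Cp was found in 10.3% of thinned inhibitor barcodes and 70.5% of control ones, Lcn2 in 12.8% and 57.5%, Orm1 in 6.41% and 48.6%, Hp in 46.8% and 84.5%, and Fgl1 in 3.21% and 22.2%. Without thinning these were 32.5% and 81.8% for Cp, 46.2% and 71.3% for Lcn2, 39.6% and 60.2% for Orm1, 84.0% and 96.6% for Hp, and 18.3% and 36.6% for Fgl1. Each was found less often in the inhibitor library with and without thinning. Saa1 was in 9.62% of thinned inhibitor barcodes and 12.7% of control ones, but in 34.3% and 20.7% without thinning, and Orm2 in 6.41% and 8.82% thinned and 26.0% and 14.3% without. The order of the libraries for these genes thus depended on depth. Hamp was in 3.21% and 12.3% of thinned barcodes and 11.8% and 19.1% of all, and Saa2 in 1.28% and 5.29% of thinned barcodes and 7.69% and 8.99% of all.

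**Figure D3:**
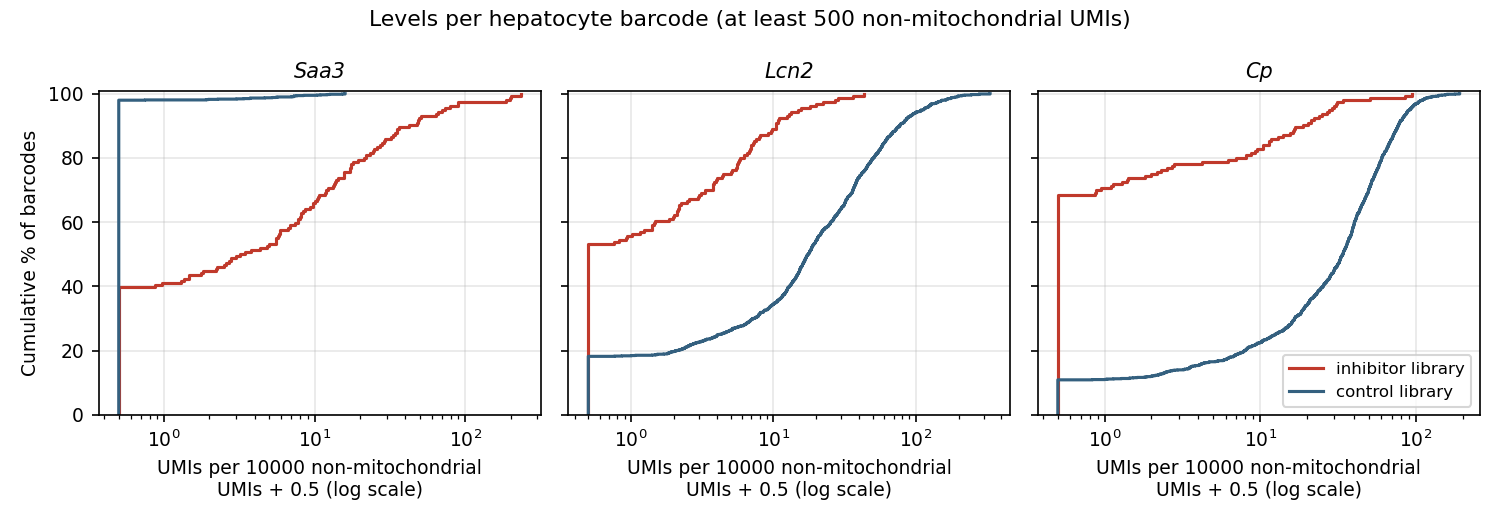
Cumulative share of hepatocyte barcodes (y axis, %) at or below a level of Saa3, Lcn2 or Cp (x axis, UMIs per 10000 non-mitochondrial UMIs plus 0.5, log scale), for the inhibitor library (red, 156 barcodes) and the control library (blue, 1190 barcodes) with at least 500 non-mitochondrial UMIs. The inhibitor curve lies to the right for Saa3 and to the left for Lcn2 and Cp; the vertical start of each curve is the share of barcodes without a UMI.

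Within each library the members were compared pair by pair over the barcodes with at least 500 non-mitochondrial UMIs, on log levels, as a description. Over 156 inhibitor barcodes Pearson's r was 0.51 for Saa1 with Saa3, 0.58 for Hp with Cp and 0.52 for Hp with Lcn2. Over 1190 control barcodes the like values were 0.11, 0.61 and 0.49. Saa1 and Saa3 were found together in 50 of the 58 inhibitor barcodes with Saa1. In control barcodes 11 of 308 with Saa1 also had Saa3. Depth is shared by all genes of a barcode and enters these values.

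In neutrophil-like cells (548 in the inhibitor library, 801 in the control library) Hp and Lcn2 were the leading members, and both differed by less than 1.5-fold between libraries. Hp was at 1601 CPM (1521 to 1685) in the inhibitor library and 1563 (1503 to 1625) in the control library, a log2 ratio of 0.03. Lcn2 was at 1329 (1256 to 1405) and 976 (929 to 1025), a log2 ratio of 0.45, inside the 1.5-fold limit. Of the 5 members with at least 20 UMIs, 3 were lower and 0 higher, against 25% lower and 5.55% higher of 6014 features. The 3 were Saa3, Orm1 and Cp. Orm1 was at 5.38 CPM in the inhibitor library and 20.3 in the control library, on 5 and 33 UMIs. Cp was at 4.31 and 41.2, on 4 and 67 UMIs. Saa3 had 9 UMIs, or 9.69 CPM, in the inhibitor library and 65 UMIs, or 40.0 CPM, in the control library, where 6 cells held all of them and 5 of these 96.9%. Summed hepatocyte markers in these cells were at 249 CPM in the inhibitor library and 2258 in the control library.

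In monocyte-like cells (4014 in the inhibitor library, 464 in the control library) Hp was at 1371 CPM (1358 to 1384) in the inhibitor library and 947 (914 to 981) in the control library, a log2 ratio of 0.53. Lcn2 was at 53.4 (50.9 to 56.0) and 26.2 (20.9 to 32.4), a log2 ratio of 1.03. Of 5 members counted, 2 were lower (Orm1 and Cp) and 1 higher (Lcn2), against 17.2% lower and 10.4% higher of 10921 features. Orm1 had 18 UMIs in the inhibitor library and 25 in the control library, and Cp 44 and 30. Summed hepatocyte markers in these cells were at 83.8 CPM in the inhibitor library and 603 in the control library. The libraries differed in the make-up of the class. Classical monocyte-like cells, the inflammatory kind, numbered 3401 in the inhibitor library and 111 in the control library, and nonclassical or patrolling cells 613 and 353.

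Within each kind Hp was inside the 1.5-fold limit, with log2 ratios of -0.07 in classical and -0.09 in nonclassical cells. Classical cells held Hp at 1476 CPM (1462 to 1490) in the inhibitor library and 1548 (1467 to 1633) in the control library, and nonclassical cells held it at 681 (656 to 706) and 724 (690 to 759). Lcn2 was at 60.3 (57.5 to 63.3) and 47.8 (34.4 to 64.6) in classical cells and at 8.09 (5.61 to 11.3) and 18.2 (13.1 to 24.4) in nonclassical cells. In classical cells the intervals of both genes overlapped, and in nonclassical cells Lcn2 was lower in the inhibitor library. Saa3 was at 35.5 and 32.9 CPM in all monocyte-like cells of the inhibitor and control libraries, and at 27.6 and 5.01 without the 5 cells of each library with the most Saa3.

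Hp followed the same order of these cell classes in both libraries. In the inhibitor library it ran from hepatocyte barcodes (1962 CPM) through neutrophil-like (1601), classical monocyte-like (1476) and nonclassical monocyte-like cells (681) to macrophage-like cells without Kupffer-like ones (554). In the control library the same classes stood at 2594, 1563, 1548, 724 and 121. Neutrophil-like and classical monocyte-like cells had overlapping intervals in the control library. The order of Hp was the same relative to non-mitochondrial UMIs. For Lcn2 the order depended on the scale in the control library. Relative to all UMIs Lcn2 was at 1329 in neutrophil-like cells of the inhibitor library and 976 of the control library, and at 356 and 948 in hepatocyte barcodes, where the control intervals of the 2 classes overlapped. Relative to non-mitochondrial UMIs it was at 1354 and 1020 in neutrophil-like cells and at 462 and 2449 in hepatocyte barcodes, so that hepatocyte barcodes were higher in the control library only. Classical monocyte-like cells, at 60.3 and 47.8 CPM of all UMIs, were below both. Among the other members, Saa3 was at 127 CPM in control Kupffer-like cells, where 1 cell held 121 of its 131 UMIs, and Cp at 50.4 CPM in inhibitor Kupffer-like cells.

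**Figure D4:**
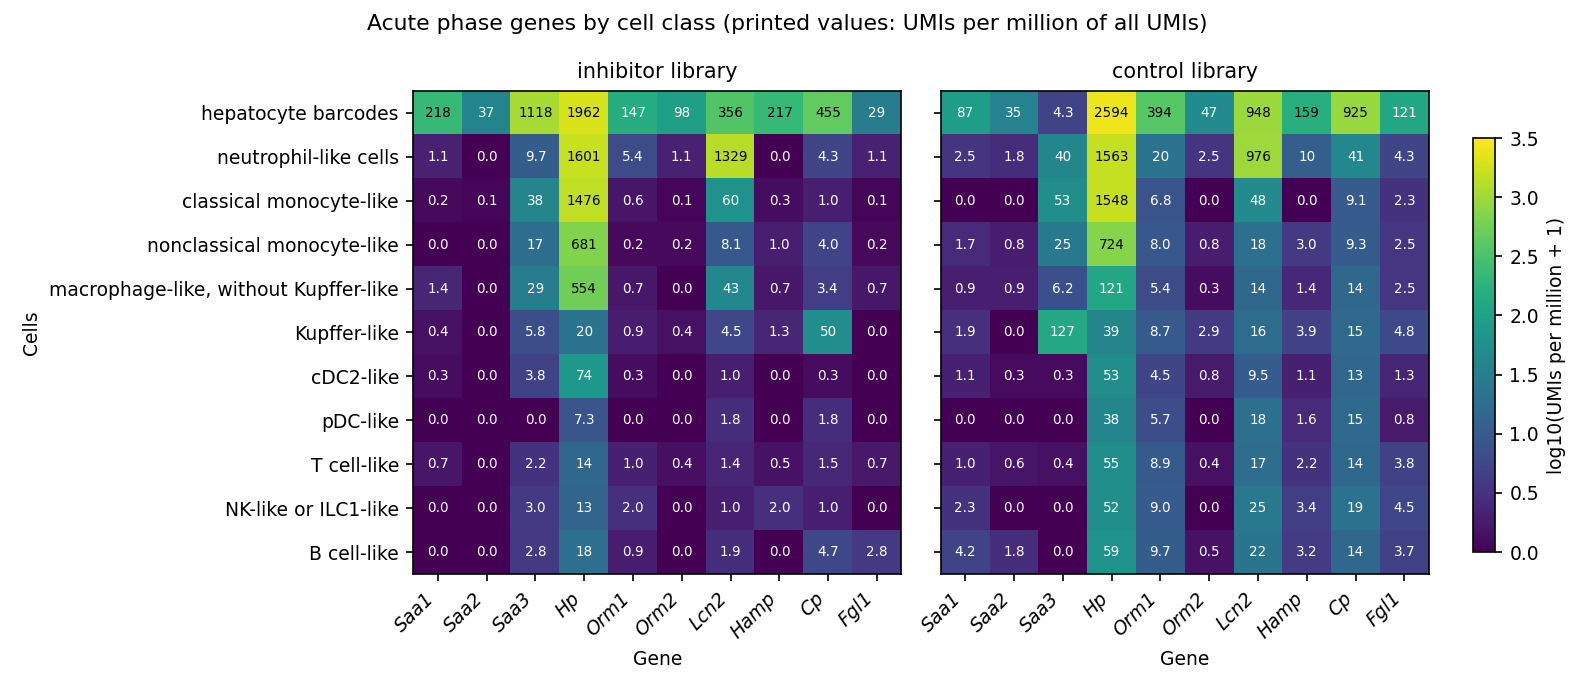
Levels of the 10 genes (columns) in 11 cell classes (rows) of the inhibitor library (left) and the control library (right); colour is log10 of CPM plus 1, and the printed numbers are CPM of all UMIs of the class. Hp and Lcn2 were the members with high values outside hepatocyte barcodes, in neutrophil-like and monocyte-like rows, and nearly every lymphocyte value was higher in the control library.

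Macrophage-like cells (315 in the inhibitor library, 853 in the control library) held Hp at 233 CPM (218 to 249) in the inhibitor library and 109 (102 to 117) in the control library, and Cp at 31.6 (26.2 to 37.9) and 14.1 (11.5 to 17.1). Of 6 members counted, 3 were lower (Saa3, Orm1 and Fgl1) and 2 higher (Hp and Cp), against 13.8% lower and 18.6% higher of 10301 features. Orm1 had 3 UMIs in the inhibitor library and 43 in the control library, and Fgl1 1 and 21. Summed hepatocyte markers in these cells were at 131 CPM in the inhibitor library and 708 in the control library. The 2 higher members came from different cells. In the 148 inhibitor and 732 control cells outside the Kupffer-like cluster, Hp was at 554 (517 to 594) in the inhibitor library and 121 (112 to 130) in the control library, beside classical monocyte markers that summed to 5957 and 2880 CPM there. The macrophage list summed to 14153 CPM in the inhibitor library and 32549 in the control library in the same cells, so they may not be like cells. In Kupffer-like cells, the resident liver macrophages (167 in the inhibitor library, 121 in the control library), Hp was at 20.2 and 38.8.

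Of the 117 Cp UMIs in inhibitor macrophage-like cells, 112 lay in Kupffer-like cells. Cp was at 50.4 CPM (41.5 to 60.6) in inhibitor Kupffer-like cells and 14.5 (8.14 to 24.0) in control ones, whereas in the other macrophage-like cells it was at 3.39 and 14.1. Of all macrophage-like cells, 19.7% in the inhibitor library and 10.8% in the control library had a Cp UMI, against 0.688% and 5.18% of lymphocyte-like cells. After thinning to 500 non-mitochondrial UMIs the shares were 1.59% and 1.18% in macrophage-like cells and 0.157% and 0.773% in lymphocyte-like cells. Saa3 in macrophage-like cells was at 15.1 and 23.1 CPM in the inhibitor and control libraries, but 1 control Kupffer-like cell held 121 of the 170 control UMIs, and without the 5 cells of each library with the most Saa3 the levels were 3.59 and 2.20.

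Lymphocyte-like cells (3196 in the inhibitor library, 3110 in the control library) are not known to make these proteins, and members read in them give a measure of free RNA. Of the 8 members counted there, 7 were lower and 1, Saa3, higher in the inhibitor library, against 11.5% lower and 3.81% higher of 11497 features. Hp was at 14.5 CPM in the inhibitor library and 55.6 in the control library, Lcn2 at 1.41 and 18.3, Cp at 1.72 and 14.5, and Orm1 at 1.09 and 9.05. Saa3 was at 2.34 and 0.332. These 5 genes had the direction they had in hepatocyte barcodes, as did Fgl1, at 0.859 in the inhibitor library and 3.82 in the control library. The other 2 did not on all UMIs: Saa1 was at 0.547 and 1.66 and Hamp at 0.547 and 2.49, lower in inhibitor lymphocyte-like cells, while their log2 ratios in hepatocyte barcodes were 1.33 and 0.45. Saa2 had 0 UMIs in inhibitor lymphocyte-like cells and 9 in control ones, both under the count of 20.

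RNA from 1 source keeps the ratio of its genes, so members were also set against the 4 hepatocyte genes of the gate. Per 1000 UMIs of Alb, Apoa1, Ttr and Fabp1, inhibitor lymphocyte-like cells held 198 UMIs of Hp (171 to 229), 19.3 of Lcn2 (11.4 to 30.5), 23.6 of Cp (14.8 to 35.7), 15.0 of Orm1 (8.19 to 25.1) and 32.1 of Saa3 (21.7 to 45.9). Inhibitor hepatocyte barcodes held 71.9 of Hp, 13.1 of Lcn2, 16.7 of Cp, 5.37 of Orm1 and 41.0 of Saa3. Fgl1 stood at 11.8 (5.88 to 21.1) in lymphocyte-like cells, against 1.08 (0.810 to 1.41) in hepatocyte barcodes. Of the 8 members counted, Fgl1, Hp and Orm1 thus lay above the hepatocyte ratio beyond counting error, and the intervals of the other 5 overlapped it. The size of these differences depended on the denominator. Per Alb UMI alone, inhibitor lymphocyte-like cells and hepatocyte barcodes stood at 0.0318 and 0.00646 for Fgl1 and 0.535 and 0.431 for Hp. Orm1 stood at 0.0405 and 0.0322, and Saa3 at 0.0867 and 0.245. In the control library lymphocyte-like cells held 73.7 UMIs of Hp (68.2 to 79.5), 24.3 of Lcn2 (21.2 to 27.7), 19.2 of Cp (16.5 to 22.3) and 12.0 of Orm1 (9.84 to 14.5), against 75.7, 27.7, 27 and 11.5 in hepatocyte barcodes. There Cp was lower than in hepatocyte barcodes, and the intervals of the other 7 overlapped, among them Fgl1, at 5.06 (3.70 to 6.75) against 3.52 (3.34 to 3.71). The same ratio separated the myeloid signals. Hp stood at 8645 in inhibitor and 839 in control neutrophil-like cells and at 34012 and 2070 in monocyte-like cells, and Lcn2 at 7174 and 524 in neutrophil-like cells, all far above the hepatocyte barcodes of the same library. Cp and Orm1 in neutrophil-like cells, at 23.3 and 29.1 in the inhibitor library and 22.1 and 10.9 in the control library, had intervals that overlapped those of lymphocyte-like cells. Cp in inhibitor macrophage-like cells stood at 432 (357 to 517), against 16.7 in hepatocyte barcodes, while in control cells it was 30.3 (24.7 to 36.7) against 27.

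**Figure D5:**
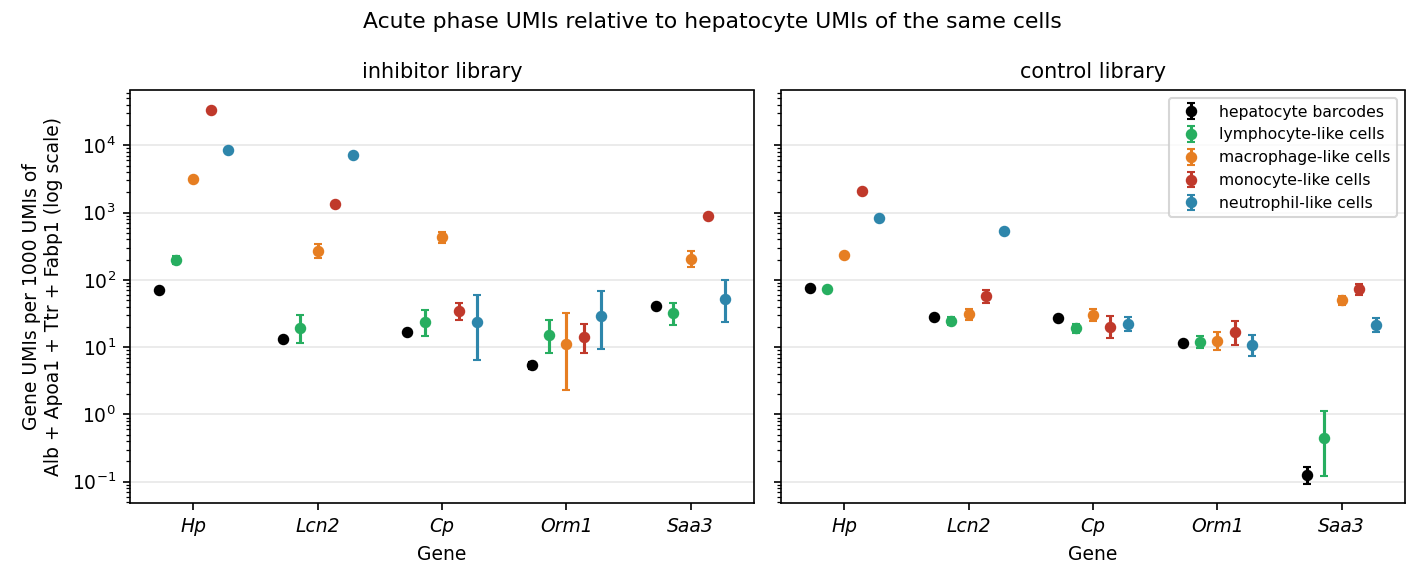
UMIs of 5 genes per 1000 UMIs of Alb, Apoa1, Ttr and Fabp1 (y axis, log scale) in 5 cell classes of the inhibitor library (left) and the control library (right), with exact 95% Poisson intervals. In both libraries the neutrophil-like and monocyte-like points of Hp lie far above the hepatocyte points; in the control library the hepatocyte and lymphocyte points of Hp, Lcn2 and Orm1 lie together, and Cp in macrophage-like cells stood at 432 in the inhibitor library and 30.3 in the control library.

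Other genes of the response were read in the same hepatocyte barcodes from lists of related genes, with levels in non-mitochondrial CPM. Of 22 other positive acute phase genes, 17 were lower and 4 higher in the inhibitor library, with a median log2 ratio of -2.11 beside 0.22 for all features (15 lower and 5 higher relative to all UMIs). The shares of all features to set beside this and the next 4 counts are 25.7% lower and 34.4% higher relative to non-mitochondrial UMIs, and 12.7% and 70.9% relative to all UMIs. Apcs, serum amyloid P, was at 16.2 in the inhibitor library and 448 in the control library, and Itih3 at 55.8 and 857. Saa4, the constitutive serum amyloid A, was at 231 and 63.3, and Steap4, a metalloreductase, at 358 and 62.9. Of 8 negative acute phase genes, whose products normally decline in inflammation, 5 were lower and 1 higher (5 and 2 relative to all UMIs). Ahsg (fetuin A) was at 959 in the inhibitor library and 10711 in the control library, and Apoh, beta-2-glycoprotein, at 280 and 1799. Serpina6, the corticosteroid carrier, was at 347 and 151, and Apoa2, an apolipoprotein of HDL, at 7264 and 4941. Genes that inflammation is known to raise and genes it is known to reduce were thus both mostly lower.

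In the list of interleukin 6 and interleukin 1 signalling genes, 14 of 16 had at least 20 UMIs, and 4 were lower and 7 higher (2 and 10 relative to all UMIs, near the shares of all features). Socs3, the feedback inhibitor induced by STAT3, was at 20.5 in the inhibitor library and 44.4 in the control library, and Nfkbiz, a nuclear regulator of NF-kB, at 27.6 and 48.6. Cebpb, a C/EBP factor, was at 688 and 165, and Il1r1, the interleukin 1 receptor, at 90.4 and 6.16. In the list of hepcidin control and iron genes 6 of 11 were lower and 3 higher (3 and 5 relative to all UMIs). Tfr2, the iron-sensing transferrin receptor, was at 26.8 in the inhibitor library and 85.3 in the control library, Smad7, an inhibitor of BMP signalling, at 7.77 and 29.5, and the ferritin genes Fth1 and Ftl1 at 24545 and 6146 and at 14732 and 5490. Of the receptors and partners of the proteins, 5 had 20 UMIs and 1 was lower and 3 higher (1 and 4 relative to all UMIs), among them Hmox1, the haem oxygenase that breaks down haem, at 271 in the inhibitor library and 20.7 in the control library, and Tlr2 at 53.7 and 9.45.

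In leukocytes, 7 of 13 signalling genes counted in macrophage-like cells were higher and 0 lower in the inhibitor library, against 18.6% and 13.8% of all features, with Tnf at 52.2 CPM of all UMIs in the inhibitor library and 25 in the control library, and Irak3, an inhibitor of interleukin 1 signalling, at 63.0 and 15.6. In monocyte-like cells 2 of 14 were higher, among them Osm, a cytokine of the interleukin 6 family, at 227 in the inhibitor library and 109 in the control library, and 0 were lower, against 10.4% and 17.2% of all features. In neutrophil-like cells 1 of 12 was lower, Tnf, at 96.9 and 153, and 0 were higher, against 25% and 5.55% of all features. Lag3, the receptor for Fgl1, was at 34.3 CPM in inhibitor lymphocyte-like cells and 48.1 in control ones, a ratio inside the 1.5-fold limit. Of the other positive acute phase genes, 15 of 17 counted in lymphocyte-like cells were lower and 1 higher, against 11.5% and 3.81% of all features, and 10 of 13 in neutrophil-like cells were lower and 1 higher, against 25% and 5.55%. Fgb, a fibrinogen chain, was at 1.64 in inhibitor lymphocyte-like cells and 44.2 in control ones, and at 7.54 and 119 in neutrophil-like cells. The higher ones were Cd14, at 3.91 and 1.58 in lymphocyte-like cells, named after its values were seen, and Steap4, at 182 and 104 in neutrophil-like cells.

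Likeness of pattern was read as Pearson's r of log2(CPM + 10) over 24 points, each a cell class of 1 library with at least 50 cells, so that points share a library and the values are a description. Saa3 was most like Glul (0.86), followed by Cul4a and Aldh3a2 (0.86 each). Saa3 and Glul were both far higher in inhibitor than in control hepatocyte barcodes, so 1 of the 24 points may carry much of their r. Lcn2 was most like Lrg1 (0.97), a leucine-rich plasma glycoprotein, and Vnn3 (0.91), and Hp was most like Mgst1 (0.92) and the complement gene C3 (0.89). The 3 genes most like Saa1 were Prodh2, Tat and the member Orm2, each at 0.99. Orm1 was most like F2, Itih4 and Azgp1 (0.99 each) and Cp most like Azgp1, Itih4 and Apoc3 (0.95 each). Orm2 was most like Agxt, Saa2 most like Lurap1l, Hamp most like Cyp2d9 and Fgl1 most like Cfhr2, each at 0.99 or more after rounding, on points that mostly separate hepatocyte barcodes from all other cells.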

How the data were processed

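The deposited matrices hold raw UMI counts per gene and barcode of 2 libraries, made by the authors with Cell Ranger 5.0.1, per the file headers. Per the submitters' processing notes the build was mm9, with R 3.0 and Seurat 3; how those were applied is not given in the sources used here. Coordinates are GRCm38. With Python 3.11.15 and scanpy 1.11.5, cells with at least 300 genes, 500 UMIs and at most 25% mitochondrial UMIs were kept, simulated doublets scored (inhibitor 717, control 374 removed), and 8753 and 6461 cells clustered on 2000 variable genes without the members (30 components, 20 neighbours, Leiden resolution 1). Clusters were named by at least 3 listed markers at 2-fold. Hepatocyte barcodes used all deposited barcodes, with no mitochondrial limit. UMIs were summed and scaled to CPM, and ratios given with conditional binomial intervals; members with at least 20 UMIs over both libraries were counted. Intervals cover counting error only. A gene with 0 UMIs was set to 3 UMIs for a bound. Other genes named are, per list, among the 2 furthest from equal in each direction by ratio with at least 100 UMIs, and the 3 most like each member. The ratios and their intervals were checked on simulated Poisson counts. These lack the unevenness over barcodes described above, so the check does not cover it. Members and lists were chosen with earlier results of these data known. No test was possible with 1 library per group. Alternatives covered gates, scaling, thresholds, doublets, resolution, free RNA and subsets of cells.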

Additional observations from a re-analysis of the deposited data

Results flagged for a closer look

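For 3 members the libraries differed in opposite directions among hepatocyte barcodes and the macrophage-like, monocyte-like and neutrophil-like cells. Lymphocyte-like cells, read as free RNA, were left out of this count. With 1 library per group these differences were not tested. Saa3 had a log2 ratio of inhibitor over control of 8.04 in hepatocyte barcodes and -2.05 in neutrophil-like cells, the second on 9 inhibitor UMIs and 65 control UMIs held by 6 cells. Lcn2 had a log2 ratio of -1.41 in hepatocyte barcodes and 1.03 in monocyte-like cells, where the classical share of cells also differed (3401 of 4014 in the inhibitor library, 111 of 464 in the control library). Cp had a log2 ratio of 1.16 in macrophage-like cells and -3.26 in neutrophil-like cells, the second on 4 inhibitor UMIs and 67 control UMIs. In neutrophil-like cells Cp stood at 23.3 UMIs per 1000 gate-gene UMIs in the inhibitor library and 22.1 in the control library.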

How the results depend on the processing

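No paired analysis was possible because each group is 1 library, and for the same reason no replicate could be left out. Of the counts of members under an alternative, 84 stayed within 1.5 times the main count and 28 did not. Of the ratios of single members under an alternative, 168 were classed as the same, 133 as moved and 24 as reversed. In hepatocyte barcodes the count of higher members was 1 relative to non-mitochondrial UMIs, lower and higher counts were 9 and 1 above 25% mitochondrial UMIs, and 2 and 5 inside hepatocyte-like clusters. Relative to the gate genes, lower and higher counts were 1 and 4 in macrophage-like, 0 and 4 in monocyte-like, 0 and 4 in neutrophil-like and 0 and 5 in lymphocyte-like cells. With at least 50 UMIs asked for, 1 was lower in macrophage-like and 1 in monocyte-like cells, and 0 higher in lymphocyte-like cells; with any UMI counted, 5, 7 and 7 were lower in macrophage-like, monocyte-like and neutrophil-like cells. At resolution 0.5, 1 was higher in macrophage-like and 0 in monocyte-like cells; at resolution 2, 2 were higher in monocyte-like cells. With the lymphocyte level subtracted, 1 was lower in macrophage-like cells, and 0 lower and 2 higher in monocyte-like cells. In Kupffer-like cells alone 1 was higher, and in classical and nonclassical monocyte-like cells alone 0 each.

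Reversed ratios (log2) relative to the gate genes were Saa3 2.06 in macrophage-like cells, Cp 0.76 in monocyte-like cells, Saa3 1.28, Orm1 1.41 and Cp 0.071 in neutrophil-like cells, and Saa1 1.77, Hp 1.43, Orm1 0.32, Hamp 1.18, Cp 0.29 and Fgl1 1.22 in lymphocyte-like cells. Inside hepatocyte-like clusters Orm1 was 0.50 and Lcn2 2.23, with 10 of the 11 control barcodes in a cluster that held no inhibitor hepatocyte barcodes. Above 25% mitochondrial UMIs Saa1 was -1.57 and Orm2 -0.76, with equal weighting -0.42 and -0.30, and without the 5 barcodes richest in each and relative to non-mitochondrial UMIs -0.29 and -0.84. In macrophage-like cells without Kupffer-like ones Saa3 was 2.24 and Cp -2.05, in Kupffer-like cells Hp was -0.94, in nonclassical monocyte-like cells Lcn2 was -1.17, and without the 5 cells richest in it Saa3 was 0.71 in macrophage-like cells. The cause of each was not tested. The over-25% subset, the removal of doublets or of the richest barcodes, the single monocyte and Kupffer-like classes and the equal weighting were chosen after seeing the data. Low counts limit Saa1, Saa2, Orm2, Hamp and Fgl1 outside hepatocyte barcodes.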
